A study of Homo sapiens with 3 samples.

Results

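The 10 heat shock proteins and chaperones described here were chosen by name, though with earlier results of these data known. They were followed over the RNA-seq libraries of THP-1 cells treated with GSK-LSD1. They are HSPA8 (P11142), HSPA5 (P11021), HSPA9 (P38646), HSPH1 (Q92598), DNAJA1 (P31689), DNAJB1 (P25685), HSP90AA1 (P07900), HSP90AB1 (P08238), HSPD1 (P10809) and HSPE1 (P61604), where the code in brackets is the UniProt protein accession under which the count table lists a gene. Of the 10 genes, 9 had a row among the 213543 features of the table. Only 4 of these 9, HSP90AB1, HSP90AA1, DNAJA1 and HSPD1, had any count. The other 5 were listed at 0 in every library, and HSPA5 has no row and was not analysed here. THP-1 is an established line of human monocytic leukemia with an MLL-AF9 fusion, and GSK-LSD1 is an inhibitor of the histone demethylase LSD1. The 0 h library came from untreated cells, and the other libraries came from cells kept for 8 h or 24 h in 0.2 µM GSK-LSD1. Each time point is 1 library, so no difference below has a replicate check and no p-value is given. These data hold no untreated library at 8 h or 24 h, so drug and time in culture cannot be told apart. Total RNA depleted of ribosomal RNA was sequenced in each case.

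Chaperones bind unfolded or partly folded proteins and help them to reach or regain their native shape. HSP70 proteins (HSPA8 in the cytosol, HSPA5 in the endoplasmic reticulum, HSPA9 in mitochondria) hold and release client proteins as they bind and hydrolyse ATP. J-domain proteins such as DNAJA1 and DNAJB1 deliver clients to HSP70 and stimulate its ATPase, and HSPH1, of the HSP110 family, exchanges the nucleotide. HSP90 proteins (the more stress-inducible HSP90AA1 and the constitutive HSP90AB1) act later, on kinases, steroid receptors and other clients. HSPD1 and its lid HSPE1 form the folding chamber of the mitochondrial matrix. Under heat or other proteotoxic stress, heat shock factor HSF1 binds inverted repeats of GAA before many of these genes.

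The promoters of the 4 genes with counts are shown because these genes carry every value below, and because their start sites differ in the element that HSF1 recognises. Each sequence is the 250 bases before the RefSeq start site that coincides with the start of the gene's canonical Ensembl transcript, read 5′ to 3′ on the gene's strand from RefSeq promoters of GRCh38.p14. Capitals mark the cores searched, which are GAANNTTC (head-to-head) and TTCNNGAA (tail-to-tail). Each core is its own reverse complement, so both strands were covered, and matches may overlap.
HSP90AA1, chr14:102087045-102087294, reverse strand: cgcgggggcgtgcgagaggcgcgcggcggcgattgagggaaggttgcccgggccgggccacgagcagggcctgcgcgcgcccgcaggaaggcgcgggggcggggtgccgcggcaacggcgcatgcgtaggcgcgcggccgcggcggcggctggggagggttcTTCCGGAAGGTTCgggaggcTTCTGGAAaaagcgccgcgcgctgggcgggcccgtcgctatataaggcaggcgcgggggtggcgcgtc
HSP90AB1, chr6:44246851-44247100, forward strand: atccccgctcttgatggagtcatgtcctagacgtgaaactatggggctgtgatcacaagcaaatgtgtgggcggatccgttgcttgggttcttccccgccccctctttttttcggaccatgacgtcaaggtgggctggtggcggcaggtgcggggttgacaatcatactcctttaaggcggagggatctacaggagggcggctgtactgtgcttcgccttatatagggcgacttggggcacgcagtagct
DNAJA1, chr9:33025023-33025272, forward strand: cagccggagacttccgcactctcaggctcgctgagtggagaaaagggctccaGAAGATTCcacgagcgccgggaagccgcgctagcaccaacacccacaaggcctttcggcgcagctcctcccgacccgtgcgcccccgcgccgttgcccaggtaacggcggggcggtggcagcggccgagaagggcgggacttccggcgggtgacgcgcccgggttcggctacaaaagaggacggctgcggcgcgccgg
HSPD1, chr2:197499841-197500090, reverse strand: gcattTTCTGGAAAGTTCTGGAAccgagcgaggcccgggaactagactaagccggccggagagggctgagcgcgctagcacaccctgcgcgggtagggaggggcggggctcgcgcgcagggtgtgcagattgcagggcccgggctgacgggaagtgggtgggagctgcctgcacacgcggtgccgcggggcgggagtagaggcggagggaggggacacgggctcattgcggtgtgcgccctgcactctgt

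Cores of this kind occurred in 5 of the 10 promoters, 13 cores in all. Over all 35116 RefSeq promoters, 11.6% hold at least 1 of them in the same 250 bases, 5.78% the head-to-head core and 6.62% the tail-to-tail core. HSP90AA1 holds 3 cores between 88 and 61 bases before its start (positions -88 to -61), and HSPD1 holds 3 overlapping cores at -245 to -228. DNAJA1 holds 1 core at -198 to -191. The window of HSP90AB1 holds none, although this gene has 3 RefSeq start sites and only the canonical one was searched. Among the genes listed at 0, HSPA8 holds 4 cores and DNAJB1 holds 2, while the windows of HSPA9, HSPE1 and HSPH1 hold none, as does that of HSPA5. HSPE1 starts beside HSPD1 on the opposite strand, with a window of 197500129 to 197500378 on chromosome 2. The 3 HSPD1 cores lie between the starts of these genes, so before HSPE1 too, but outside its 250 bases. The HSPH1 start used lies 484 bp from the canonical one. A match in these letters is a description of the sequence and not a binding site.

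**Figure D1:**
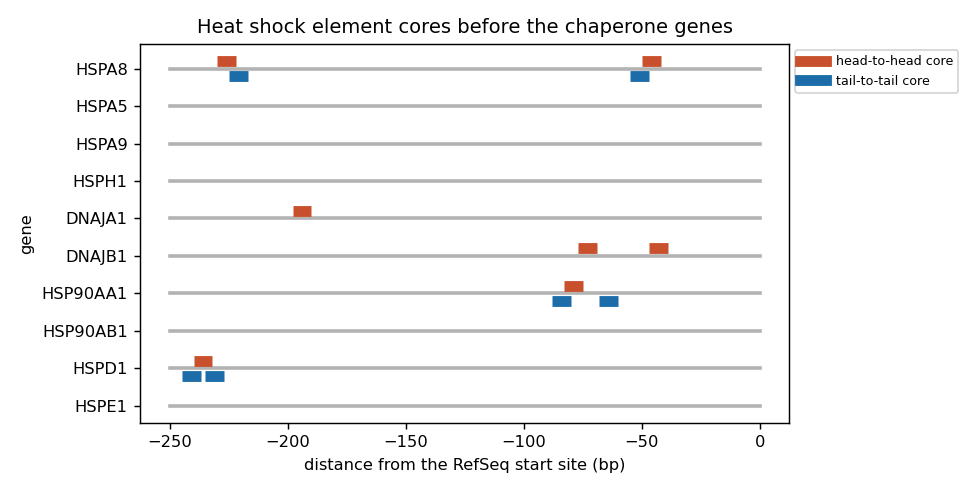
Positions of the 13 cores in the 250 bases before the start site of each of the 10 genes, with the distance from the start in bp on the x axis. Red bars are head-to-head cores and blue bars are tail-to-tail cores; HSPA8 has 4, HSP90AA1 and HSPD1 have 3 each, DNAJB1 has 2 and DNAJA1 has 1.

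The untreated library held 1475938 counts, that at 8 h 1310912 and that at 24 h 1444011. A row with 0 counts therefore allows up to 3 counts by sampling alone. This is 1.95 CPM (the usual depth-scaled count, on TMM library sizes, the trimmed-mean scaling of edgeR) at 0 h, 2.34 at 8 h and 2.11 at 24 h. The limit holds for the row and not for the gene, because reads of a gene may be lost to overlapping features. All intervals and limits below are 95% and reflect counting error alone, because reads that carry no molecular identifier need not be separate molecules. Of 12 myeloid marker genes, 9 had counts, with LYZ at 655, 747 and 1773 and ITGAM at 87, 120 and 339 counts, whereas CD33, CSF1R and TYROBP were listed at 0. Of 8 markers of other cell types, only COL1A1 had counts (0, 4 and 2). CD86 (P42081), a surface marker of myeloid differentiation, had 1, 19 and 37 counts, and KDM1A (O60341), which encodes LSD1, had 1, 0 and 1. GSK-LSD1 acts on the enzyme, so its mRNA checks no label.

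Among the 4 genes with counts HSP90AB1 was the most abundant, the levels of the other 6 being unknown here. It is a forward-strand gene of chromosome 6 (GRCh38, 44246166 to 44253888) with 12718 counts in the untreated library, 11673 at 8 h and 12357 at 24 h. These are 8278 CPM (95% Poisson interval 8135 to 8423), 9116 CPM (8952 to 9283) and 8700 CPM (8548 to 8855). Its row had the 4th highest count of the whole table in each of the 3 libraries. The level was thus highest at 8 h and lowest at 0 h on this scale, with intervals that do not overlap. As a share of all counts HSP90AB1 stood at 0.862%, 0.89% and 0.856%, so the order of 0 h and 24 h turned when total counts set the scale.

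HSP90AA1, the other cytosolic HSP90, lies on the reverse strand of chromosome 14 (102080742 to 102139699). It had 2986, 2653 and 2639 counts, or 1944 CPM (1875 to 2015) at 0 h, 2072 CPM (1994 to 2152) at 8 h and 1858 CPM (1788 to 1930) at 24 h. The interval at 0 h overlaps those at 8 h and 24 h, whereas the intervals at 8 h and 24 h do not overlap. Its rank in the table was 37th at 0 h, 36th at 8 h and 42nd at 24 h.

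DNAJA1, a J-domain partner of cytosolic HSP70, lies on the forward strand of chromosome 9 (33025273 to 33039907). It had 930, 1104 and 1041 counts, or 605 CPM (567 to 646) at 0 h, 862 CPM (812 to 915) at 8 h and 733 CPM (689 to 779) at 24 h. None of these intervals overlap, so DNAJA1 was highest at 8 h and stayed above its 0 h level at 24 h. Its rank moved from 234th at 0 h to 149th at 8 h and 187th at 24 h.

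HSPD1, the mitochondrial chaperonin, lies on the reverse strand of chromosome 2 (197486584 to 197516737). It had 714, 518 and 507 counts, or 465 CPM (431 to 500) at 0 h, 405 CPM (370 to 441) at 8 h and 357 CPM (327 to 389) at 24 h. HSPD1 was highest at 0 h, where DNAJA1 was lowest, and had its lowest level at 24 h. The interval at 8 h overlaps both others, and those at 0 h and 24 h do not overlap. Its rank moved from 344th to 458th and 515th.

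**Figure D2:**
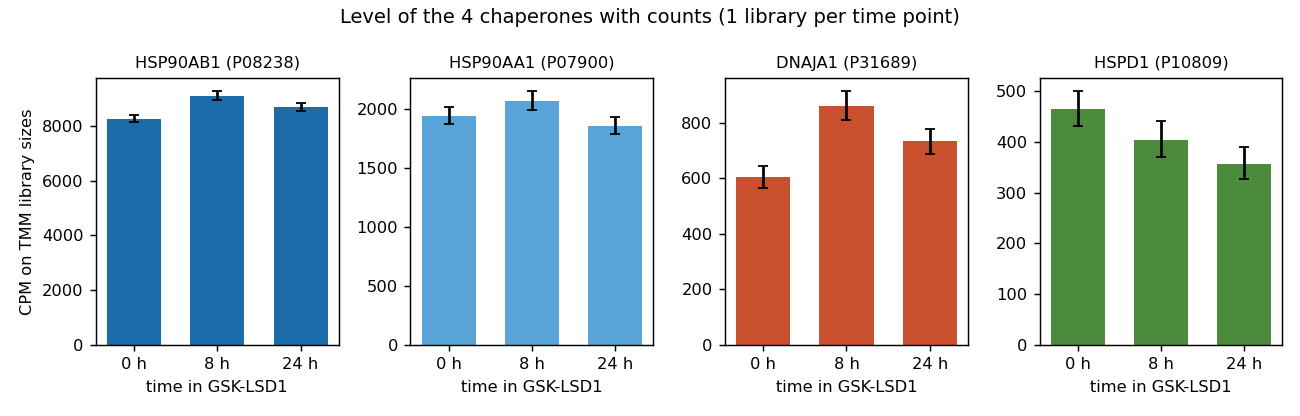
CPM on TMM library sizes (y axis, from 0, with its own scale in each panel) at 0 h, 8 h and 24 h for HSP90AB1, HSP90AA1, DNAJA1 and HSPD1. Bars are single libraries and error bars are 95% Poisson intervals of the counts; DNAJA1 is highest at 8 h with 862 CPM and HSPD1 is lowest at 24 h with 357 CPM.

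Between genes, levels can be compared only per length. Per kb of the canonical transcript, the levels at 0 h were 3240 CPM per kb for HSP90AB1 (transcript of 2555 bp in 12 exons), 602 for HSP90AA1 (3228 bp in 11 exons), 261 for DNAJA1 (2319 bp in 9 exons) and 207 for HSPD1 (2245 bp in 12 exons). This order was the same at 8 h and 24 h, and no neighbours in it have overlapping counting intervals in any library. DNAJA1 and HSPD1 were closest at 0 h, at 245 to 278 and 192 to 223 CPM per kb. It is not stated which exon bases were counted for each row, so these per-length levels are approximate.

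The 4 rows together held 17348, 15948 and 16544 counts, which is 1.18% (95% Wilson interval 1.16% to 1.19%), 1.22% (1.2% to 1.24%) and 1.15% (1.13% to 1.16%) of the libraries. HSP90AB1 alone made up 73.3%, 73.2% and 74.7% of this sum. On the log2 scale the sum was 0.14 higher at 8 h and 0.04 higher at 24 h than at 0 h, and both directions turned under a lowess correction, which removes the trend of the ratios with mean expression, the latter also with total counts. Fewer cells of a kind and less RNA per cell cannot be told apart in these bulk libraries.

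The comparison of 8 h with 0 h asks which genes differed early, after 8 h in GSK-LSD1. DNAJA1 was 1.42-fold higher (interval 1.3 to 1.56), a log2 ratio of 0.51 (0.38 to 0.64). HSPD1 was lower, with a log2 ratio of -0.20 (-0.37 to -0.03). HSP90AB1 and HSP90AA1 had log2 ratios of 0.14 (0.10 to 0.18) and 0.09 (0.02 to 0.17), and both turned negative, to -0.13 and -0.09, under the lowess correction. None of the 4 genes passed 1.5-fold in either direction. Of all features that reached 10 counts in a library, 13.8% were higher and 17.2% lower past 1.5-fold. Of the 2865 features with at least 100 counts, which are nearer to the chaperones in depth, 6.42% were higher and 4.96% lower. Among these, 8.55% had a log2 ratio above that of DNAJA1 and 23.3% had one below that of HSPD1, while both HSP90 genes lay within the middle 50% (-0.18 to 0.25). Counting intervals lay wholly above 0 for 3 of the 4 genes and below 0 for 1, where 24.7% and 15.9% of these features did so.

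The comparison of 24 h with 0 h gives the later state. HSPD1 was 0.768-fold its 0 h level (interval 0.684 to 0.862), a log2 ratio of -0.38 (-0.55 to -0.21). DNAJA1 was 1.21-fold higher (1.11 to 1.32), a log2 ratio of 0.28 (0.15 to 0.41). HSP90AB1 had a log2 ratio of 0.07 (0.04 to 0.11), which turned to -0.01 with total counts and to -0.15 under the lowess correction. The interval of HSP90AA1, with a log2 ratio of -0.06 (-0.14 to 0.01), included 0 on the TMM scale. Its value was -0.15 with total counts and -0.19 under the lowess correction, both below that interval. Again none of the 4 passed 1.5-fold, where 17.0% of the features with at least 10 counts were higher and 16.9% lower. With at least 100 counts these shares were 8.8% and 6.25%. Of the latter features, 16% lay below HSPD1 and 21.3% above DNAJA1, so neither gene stood at an extreme of the table. Intervals were wholly above 0 for 2 of the 4 genes and below 0 for 1, against 23.3% and 23.9% of these features. This comparison shares the 0 h library with the one before.

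From 8 h to 24 h all 4 log2 ratios were negative, at -0.23 (-0.36 to -0.11) for DNAJA1, -0.18 (-0.36 to -0.001) for HSPD1, -0.16 (-0.24 to -0.08) for HSP90AA1 and -0.07 (-0.10 to -0.03) for HSP90AB1. No gene passed 1.5-fold. The background past 1.5-fold was 13.7% higher and 9.14% lower with at least 10 counts, and 1.54% higher and 0.803% lower with at least 100 counts. On the TMM scale all 4 counting intervals were below 0, against 13.6% of the features with at least 100 counts, while 8.41% were above 0. With TMM over features with at least 100 counts, HSP90AB1 gave -0.02 and HSPD1 -0.13, and the lowess correction gave the same rounded values. Both lie nearer to 0, and intervals were not computed under those scalings. The HSP90 genes have far higher counts and thus narrower intervals than most of these features. The median of the 2865 features with at least 100 counts was itself -0.04 in this comparison. DNAJA1 had the largest difference of the 4, and 16.1% of those features had a lower log2 ratio.

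**Figure D3:**
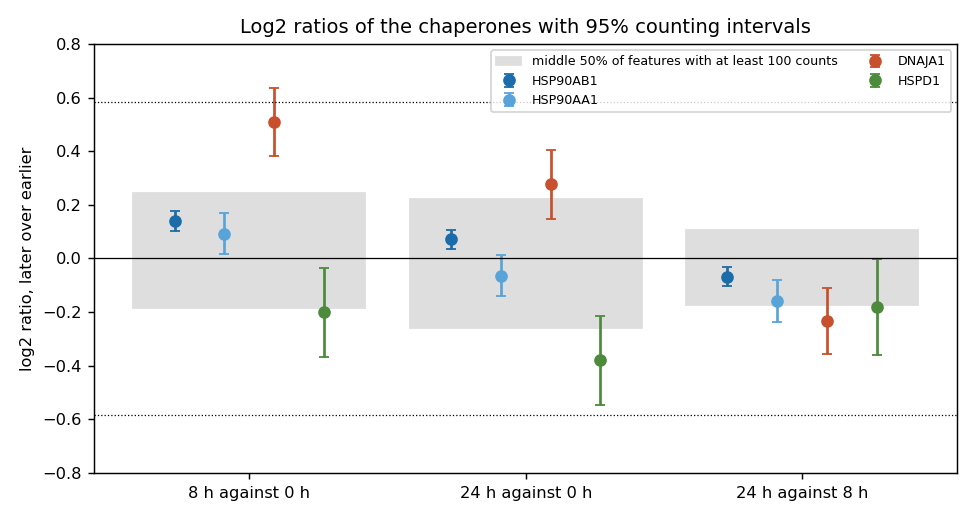
Log2 ratios (y axis, later over earlier library) of HSP90AB1, HSP90AA1, DNAJA1 and HSPD1 in the 3 comparisons, with 95% counting intervals. Grey boxes span the middle 50% of the 2865 features with at least 100 counts and dotted lines mark 1.5-fold; DNAJA1 lies above its box at 8 h and 24 h against 0 h and HSPD1 below, while the small HSP90 ratios against 0 h depend on the library scaling and turn negative under the lowess correction where positive.

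**Figure D4:**
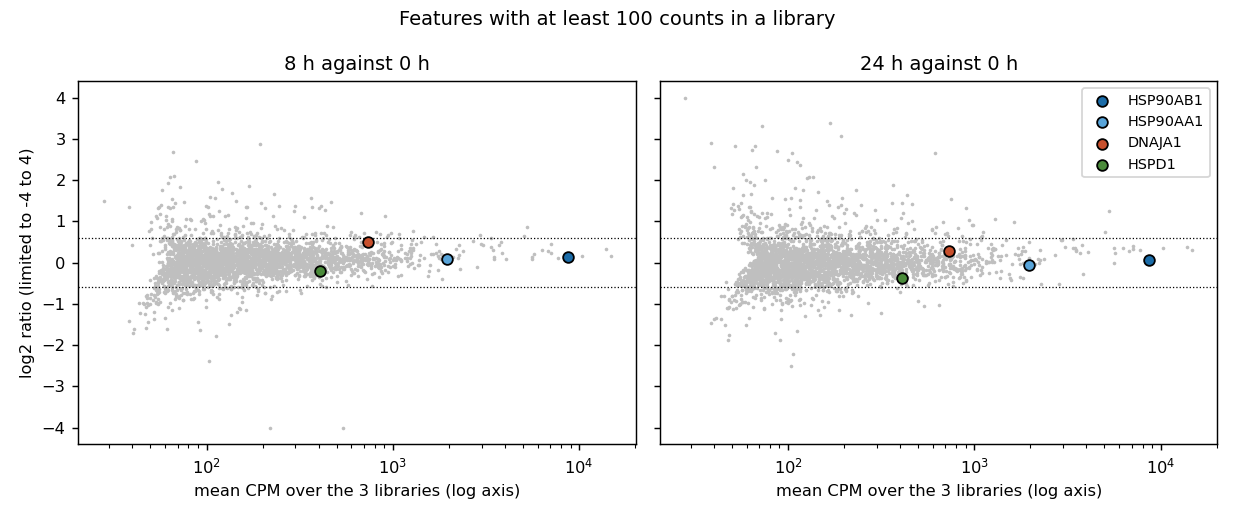
Log2 ratio at 8 h (left) and 24 h (right) against 0 h on the y axis and mean CPM over the 3 libraries on a log x axis, for the 2865 features that reached 100 counts (grey). The coloured points are the 4 chaperones, all between the dotted lines at 1.5-fold, with HSP90AB1 among the most abundant features of the table, where the lowess correction turns its ratios of 0.14 and 0.07 negative.

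Ratios of chaperone counts inside 1 library do not depend on a scaling factor that all genes of a library share. The lowess correction varies with expression and can shift them. The count of HSP90AA1 per count of HSP90AB1 was 0.235 at 0 h, 0.227 at 8 h and 0.214 at 24 h. Its change had a log2 odds ratio of -0.05 (exact conditional interval -0.13 to 0.04) at 8 h and -0.14 (-0.22 to -0.05) at 24 h against 0 h. Without the lowess correction, the share of the more inducible HSP90AA1 was thus lower at 24 h beyond counting error. With it, the 24 h log2 ratios of HSP90AA1 and HSP90AB1 lay closer together, at -0.19 and -0.15 against -0.06 and 0.07 without it. The count of DNAJA1 per count of HSPD1 was 1.3 at 0 h, 2.13 at 8 h and 2.05 at 24 h. This was the largest shift among the 6 pairs with counts, with a log2 odds ratio of 0.71 (0.50 to 0.92) at 8 h and 0.66 (0.44 to 0.87) at 24 h, and -0.05 (-0.27 to 0.17) between 8 h and 24 h. Against HSP90AB1, DNAJA1 shifted by 0.37 (0.24 to 0.50) at 8 h and 0.20 (0.07 to 0.34) at 24 h, and HSPD1 by -0.34 (-0.51 to -0.17) and -0.45 (-0.62 to -0.28). Against HSP90AA1, DNAJA1 shifted by 0.42 (0.27 to 0.57) and 0.34 (0.19 to 0.49), and HSPD1 by -0.29 (-0.48 to -0.11) and -0.32 (-0.50 to -0.13). DNAJA1 and HSPD1 thus moved apart from each other and from both HSP90 genes in opposite directions at both times against 0 h. Both times share the single 0 h library, and these shifts follow from the log2 ratios given above, so they are no independent check. All pairs other than HSP90AA1 with HSP90AB1 were chosen after the counts were seen, because 6 of the 7 pairs first listed hold a gene without counts.

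HSPA8, HSPA9, HSPH1, DNAJB1 and HSPE1 were listed at 0 under their accessions in all 3 libraries. A 0 here cannot be read as a silent gene. The glycolysis enzymes GAPDH, ENO1 and PKM, which every cell uses and which were looked up after the zeros were seen, had 5, 1 and 4 counts, 0 in each library, and 1, 2 and 2 counts under their accessions. How reads shared by overlapping features were counted is not given in the sources used here. In GENCODE v44, HSPA8 has 17 protein-coding transcripts, DNAJB1 20, HSPA9 8, HSPH1 5 and HSPE1 3, against 1 for DNAJA1, 4 each for HSP90AA1 and HSP90AB1 and 13 for HSPD1. Other coding transcripts of the same gene cover 88% to 100% of the canonical exon bases of the 5 genes at 0. Of those with counts, this share was 0% for DNAJA1 but 90.5% for HSP90AA1, 99.9% for HSPD1 and 100% for HSP90AB1. None of these coding transcripts was listed under its Ensembl identifier. Whether any has a row under another protein accession was not searched. Non-coding transcripts that do have rows cover 99.7% of these bases in HSPA8, 87.8% in HSPE1, 74.3% in HSPA9, 51.8% in HSPH1 and 0% in DNAJB1. In the genes with counts they cover 99.9% in HSPD1, 38.3% in HSP90AA1, 20.4% in DNAJA1 and 0% in HSP90AB1. Exons of HSPE1-MOB4, a readthrough gene, cover 34.5% of the HSPE1 exon bases. The part of shared reads in the zeros was not tested.

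Beside the accession rows, the table lists 30 non-coding or retained-intron transcripts of 8 of the 10 genes under Ensembl identifiers, and 18 of them had a count. Together they held 70, 64 and 90 counts. The retained-intron transcript of HSPA9 (ENST00000649692, chromosome 5, 138554888 to 138575421) had the most, with 10, 15 and 20 counts, although the accession row of HSPA9 was listed at 0. A pair of HSPH1 retained-intron transcripts (ENST00000629751 and ENST00000626866) had 9, 6 and 8 and 11, 4 and 5 counts. HSPD1 transcripts ENST00000491249 and ENST00000461097 had 10, 6 and 8 and 4, 12 and 6 counts. No ratio between time points was computed from counts this low.

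Chaperone genes have left many pseudogenes, most of them processed, which are intronless copies of their mRNAs elsewhere in the genome. The table lists 86 transcripts of 82 pseudogenes of the 10 genes, of which 2 are annotated as unprocessed. A count was found for 39 of the 82, with 101, 96 and 110 counts in all. HSP90AB3P on chromosome 4 (87891843 to 87894015) had 15, 16 and 12 counts, against 12718, 11673 and 12357 for its parent HSP90AB1. Its longest stretch identical to the canonical HSP90AB1 transcript is 140 bp. HSPA8P1 on chromosome X had 14, 12 and 14 counts, HSPA8P3 10, 3 and 12 and HSPD1P4 10, 5 and 12. These counts are uncertain, since reads of the parent genes could be assigned to the copies. HSPA8P1 shares an identical stretch of 80 bp and HSPD1P4 one of 102 bp with their parents, whereas HSPA8P3 shares at most 15 bp. HSP90AA1 and HSP90AB1 themselves share no identical stretch over 23 bp.

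Of 91 other chaperone and folding genes in 9 lists, 85 had a row, 27 of these were listed at 0, and 43 had at least 10 counts in a library. At 8 h against 0 h, 1 of the 43 was higher past 1.5-fold and 4 were lower, and the median log2 ratio was -0.03 against -0.01 for all features with at least 10 counts. At 24 h against 0 h, 0 were higher and 5 lower, with a median of -0.15 against -0.01. From 8 h to 24 h, 1 was higher and 3 lower, with a median of -0.10 against 0.00. The share past 1.5-fold was in each case below that of all features with at least 10 counts. Fewer features pass this fold at higher counts, so this too depends on the counts of the genes compared. By counting intervals wholly on one side of 0, 9 of the 43 were above and 5 below at 8 h, against 11.7% and 9.74% of all features with at least 10 counts. Those above included HSPA1B, with a log2 ratio of 0.55 (0.09 to 1.02), and BAG3, with 0.51 (0.01 to 1.02). PPID, with 0.44 (0.001 to 0.89), and DNAJC3, with 0.23 (0.03 to 0.43), were also above. For HSPA1B, BAG3, PPID and DNAJC3 the intervals at 24 h against 0 h included 0. At 24 h against 0 h the numbers were 2 above and 13 below, against 13.0% and 12.6%, and from 8 h to 24 h they were 1 and 8, against 4.9% and 5.61%. These intervals narrow with depth, so such shares depend on the counts of the genes compared.

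Among HSP70, HSP110 and small HSP genes, 7 of 12 were measured, and the HSP110 relative HSPA4L was lowest against 0 h, with 118, 65 and 81 counts and log2 ratios of -0.60 (-1.06 to -0.15) at 8 h and -0.43 (-0.86 to -0.01) at 24 h. HSPA13, an HSP70 of the endoplasmic reticulum, had the highest count of that list, with 237, 238 and 178 counts and log2 ratios of 0.27 (0.003 to 0.53) and -0.30 (-0.59 to -0.01). Of 10 measured J-domain genes, DNAJC5, a chaperone of secretory vesicles, had the highest count, with 1145, 1260 and 1360 counts and log2 ratios of 0.40 (0.28 to 0.52) and 0.36 (0.25 to 0.48). DNAJA2, the close relative of DNAJA1, lay in the other direction, with 59, 30 and 37 counts, its 8 h log2 ratio being -0.71 (-1.40 to -0.06). For DNAJB14, at 57, 36 and 32 counts, the log2 ratio at 24 h was -0.72 (-1.39 to -0.07).

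ST13, which links HSP70 to HSP90, had 184, 96 and 108 counts and log2 ratios of -0.68 (-1.05 to -0.31) at 8 h and -0.66 (-1.01 to -0.30) at 24 h. BAG5, a nucleotide exchange factor, had 396, 290 and 313 counts. Of the HSP90 co-chaperones, FKBP5 had 778, 437 and 582 counts, with log2 ratios of -0.57 (-0.74 to -0.40) at 8 h and -0.31 (-0.46 to -0.15) at 24 h. CDC37, which brings kinases to HSP90, was the 1 gene higher past 1.5-fold at 8 h, with 42, 58 and 41 counts, its log2 ratio being 0.73 (0.13 to 1.34). CHORDC1 was the only gene higher past that fold from 8 h to 24 h, at 24, 7 and 18 counts. Its log2 ratio there was 1.21, whose interval (-0.11 to 2.72) includes 0, and at 8 h it was -1.51 (-2.97 to -0.26). The partners of HSP90 thus did not share a direction.

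In the cytosolic chaperonin CCT, a ring of different subunits, CCT4 had 974, 828 and 869 counts, CCT7 617, 564 and 573, CCT6A 344, 295 and 306 and TCP1 49, 34 and 27, whereas CCT2, CCT3, CCT5 and CCT8 were listed at 0. The ring needs all of its subunits, so here too a 0 cannot be read as a silent gene. The log2 ratios of CCT4, CCT6A and CCT7 lay between -0.06 and 0.13 against 0 h, with intervals that include 0, and that of TCP1 was -0.75 (-1.48 to -0.04) at 24 h.

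In the endoplasmic reticulum, PDIA6, a disulfide isomerase, had the highest count, with 3177, 2894 and 2856 counts and log2 ratios of 0.13 (0.06 to 0.20) and -0.04 (-0.11 to 0.03). For SDF2L1, at 109, 74 and 72 counts, the log2 ratio at 24 h was -0.48 (-0.94 to -0.04). ERO1A, which oxidises disulfide isomerases, had 213, 223 and 242 counts and log2 ratios of 0.33 (0.05 to 0.61) and 0.30 (0.03 to 0.57). CANX, the lectin chaperone calnexin, had 2679, 2156 and 1862 counts, with a 24 h log2 ratio of -0.41 (-0.50 to -0.33). Of the unfolded protein response, ATF4 had 1181, 989 and 934 counts and TRIB3 118, 86 and 70, with log2 ratios at 24 h of -0.23 (-0.35 to -0.10) and -0.64 (-1.09 to -0.20). DNAJB9, whose gene is also induced by this response, had 46, 39 and 20 counts, with a 24 h log2 ratio of -1.09 (-1.92 to -0.30). DNAJB11 was lower from 8 h to 24 h, with 49, 58 and 33 counts. In mitochondria, GRPEL1, the exchange factor of HSPA9, had 56, 44 and 52 counts, and HSBP1, which binds heat shock factor, had 128, 83 and 107, with intervals that include 0 at both times.

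**Figure D5:**
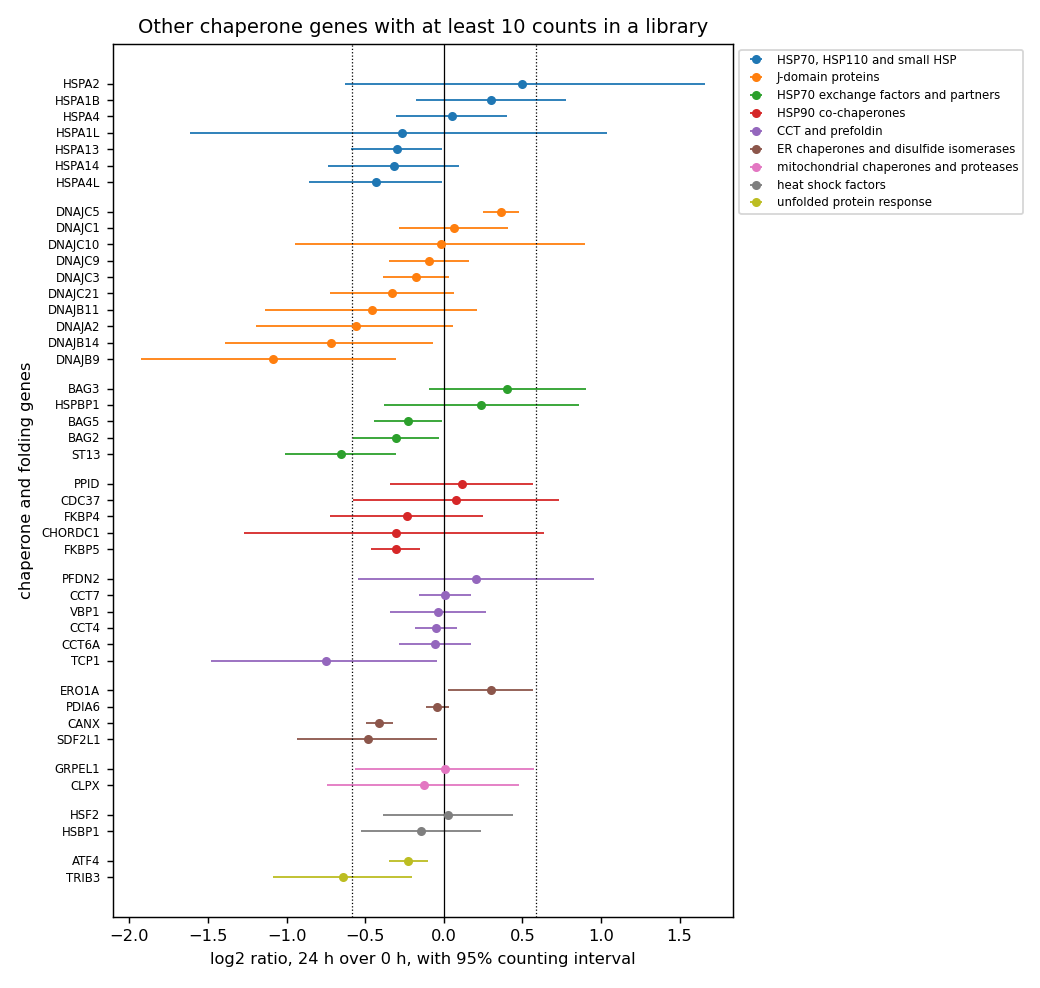
Log2 ratio at 24 h over 0 h (x axis) with 95% counting intervals for the 43 other chaperone genes with at least 10 counts in a library, coloured by list. Dotted lines mark 1.5-fold; 5 genes (DNAJB9, TCP1, DNAJB14, ST13 and TRIB3) lie below the lower line and 0 lie above the upper one.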

How the data were processed

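RNA-seq was measured in 3 libraries of THP-1 cells, 1 per time point. Per the submitters' processing notes and the paper's methods, the authors trimmed and mapped the reads to hg38 with fastp and STAR through Seq2science, and the file they deposited holds raw counts, 1 whole number per feature and library. Which program and gene annotation produced them, with which strand setting, and how it treated shared reads, is not given in the sources used here. Overlapping features, pseudogenes and paralogs may therefore lose or exchange reads.

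Rows were found by UniProt accession. The table gives no gene names, so the accession of each listed gene was supplied by hand. Library sizes were scaled by TMM in edgeR 4.0.16 (factors 1.04, 0.977 and 0.984), with DESeq2 1.42.0 size factors as an alternative, in R 4.3.3. Log2 ratios used no prior count, with Clopper-Pearson intervals conditional on both counts. Pair ratios used conditional odds ratios. These steps ran in Python 3.11.15 with scipy 1.17.1 and statsmodels 0.14.6. Only the log2 ratios and their intervals were tested on simulated data, for 24 h against 0 h. The simulated counts held counting error alone, with planted changes larger than any of the members. Scaling, the lowess correction and pair ratios were not tested in this way. Depth was 1310912 to 1475938 counts per library. Gene models came from GENCODE v44 (GRCh38) and promoters from RefSeq, which held all 10 genes.

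The members and lists were chosen with earlier results of these data known. Named were all members, the highest count and the largest change at 8 h and 24 h in each list (at least 50 counts, interval without 0), and the 8 best-counted transcripts or pseudogenes. TCP1, CCT6A, CCT7, CHORDC1, DNAJB9, DNAJB11, CANX, HSPH1 transcript ENST00000626866, GAPDH, ENO1 and PKM fall outside that rule and were picked with their values in view, as were 5 of the 6 pair ratios. HSPA1B, BAG3, PPID and DNAJC3 also fall outside it and were picked because their 8 h intervals lay above 0.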

Additional observations from a re-analysis of the deposited data

How the results depend on the processing

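With 1 library per time point, only scaling, filters and thresholds could be varied, and no paired analysis was possible because no time point has replicates. DNAJA1 and HSPD1 kept their directions in each comparison under DESeq2 size factors, total counts, TMM over features with at least 100 counts and the lowess correction. The small HSP90 values did not all do so, and some kept their direction but left their counting interval. Under the lowess correction HSP90AA1 gave -0.0870 (8 h over 0 h) and -0.19 (24 h), and HSP90AB1 gave -0.13 (8 h) and -0.15 (24 h). The summed members gave -0.14 (8 h), -0.20 (24 h) and -0.0552 (24 h over 8 h). With total counts HSP90AA1 gave -0.15 (24 h) and HSP90AB1 -0.00999 (24 h), and the summed members 0.0497 (8 h) and -0.0369 (24 h). TMM over the better-counted features gave summed values of 0.10 (8 h) and -0.0446 (24 h over 8 h). The cause was not tested. No member passed 1.5-fold or 2-fold under any scaling or with a prior count of 2. By a counting interval wholly past 0 on the TMM scale, the members numbered 3 higher and 1 lower (8 h), 2 and 1 (24 h), and 0 and 4 (24 h over 8 h), beside 24.7% and 15.9%, 23.3% and 23.9%, and 8.41% and 13.6% of the features with at least 100 counts. These intervals were not computed under the other scalings, and that of HSPD1 (24 h over 8 h) ended at -0.001. For the other chaperone genes, a minimum of 100 counts gave 0 higher and 2 lower (8 h), 0 and 2 (24 h), and 0 and 0 (24 h over 8 h). Of all features with at least 100 counts, 6.42% were higher and 4.96% lower (8 h), 8.8% and 6.25% (24 h), and 1.54% and 0.803% (24 h over 8 h). A minimum of 1 count in both libraries gave 5 higher and 5 lower (8 h), 2 and 10 (24 h), and 3 and 8 (24 h over 8 h). The share of all features at that minimum was not computed, so these numbers have no background. For the 12 log2 ratios of single members, 37 alternative values stayed within the counting interval, 7 moved outside it and 4 reversed. Adding 0.5 to each count could not move the pair ratios at these counts and tests nothing. Depth limits rows at 0, where up to 3 counts could have been missed by sampling. Reads lost to other features are not covered, so this bounds the row and not the expression of the gene.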
